A study of Mus musculus with 12 samples.

Results

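Semaphorins are guidance proteins that steer growing axons and migrating neurons and prune or shape synapses. The secreted class 3 semaphorins are held at the cell surface by neuropilins, which have little signalling capacity of their own, and the signal passes into the cell through plexins, whose cytoplasmic part acts on small GTPases and the cytoskeleton. Sema3e is the exception in its class, since it can bind Plxnd1 without a neuropilin, and Sema5a is anchored in the membrane. In the cortex these genes are known from callosal and corticofugal axon guidance, interneuron migration and spine pruning. The 10 members of this pathway described here are the ligands *Sema3a*, *Sema3c*, *Sema3e* and *Sema5a*, the plexins *Plxna1*, *Plxna2*, *Plxna4* and *Plxnd1*, and the neuropilins *Nrp1* and *Nrp2*, all taken by symbol from the 55335 genes of the expression matrices.

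The data were single-nucleus RNA counts from the cortex of 12 mice at postnatal day 21 (P21), 6 wild type (WT) and 6 heterozygous (Het) for a frameshift allele of the transcription factor *Myt1l* (strain MYT1L S710fsX), and each genotype had 3 male and 3 female animals. The study's methods describe calling-card constructs with a tdTomato reporter, delivered by AAV9 to the brains of newborn pups of this cross whose cortex was taken at P21, and state that the animals came from several litters and that all samples were processed on the same plates. Transcripts of tdTomato were present in 12 of 12 libraries, WT and Het (3978 to 16701 UMIs). The Het group carried 1 germline allele with no cell-type restriction, and every animal was 1 library. The deposited matrices held 78743 nuclear barcodes with 23429386 to 59958572 UMIs (unique molecular identifiers) per animal, no barcode occurred in more than 1 library, and 34861 nuclei (44.3%) met the limits of the study's methods. The study reports more P21 nuclei after its own filtering than there are deposited barcodes. The 34861 nuclei are therefore not the set that the study analysed.

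Nuclei were clustered without the 10 genes, so that a member's level played no part in drawing a class, and 24595 nuclei in 50 clusters were placed in 26 classes from marker genes. The other 10266 nuclei stayed unnamed. Class names end in "-like" because the annotation of the study was not used here. They cover intratelencephalic (IT), extratelencephalic (ET), near-projecting (NP) and corticothalamic (CT) cortical neurons, layer 6b (L6b) neurons, dentate granule (DG) and CA1 hippocampal neurons, Car3 claustrum neurons, 5 interneuron classes, striatal D1 and D2 projection neurons (STR D1, STR D2), immature GABAergic neurons and 6 non-neuronal classes, oligodendrocyte precursors (OPC) among them. Of the 24 classes named from a single marker list, 17 held the highest summed level of their own list among all named classes. With the mean log2 level of the list, a measure chosen after that result, 22 were highest among the classes of their own broad group, the exceptions being L4/5 IT-like and L5 ET-like nuclei. Nuclei with hippocampal, striatal and claustral markers were present although the samples were labelled cortex. A level is given in counts per 1000000 UMIs (CPM) of the summed nuclei of a class in 1 animal, as the mean ± SD over animals with at least 10 nuclei in that class, which 24 classes had in at least 6 animals. In such sums, fewer cells of a type and less RNA per cell cannot be told apart where a group mixes several types. Levels are not corrected for gene length, which runs from 40.2 kb (*Plxnd1*) to 477.2 kb (*Sema3a*). A threshold in CPM therefore does not compare different genes on equal terms.

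**Figure D1:**
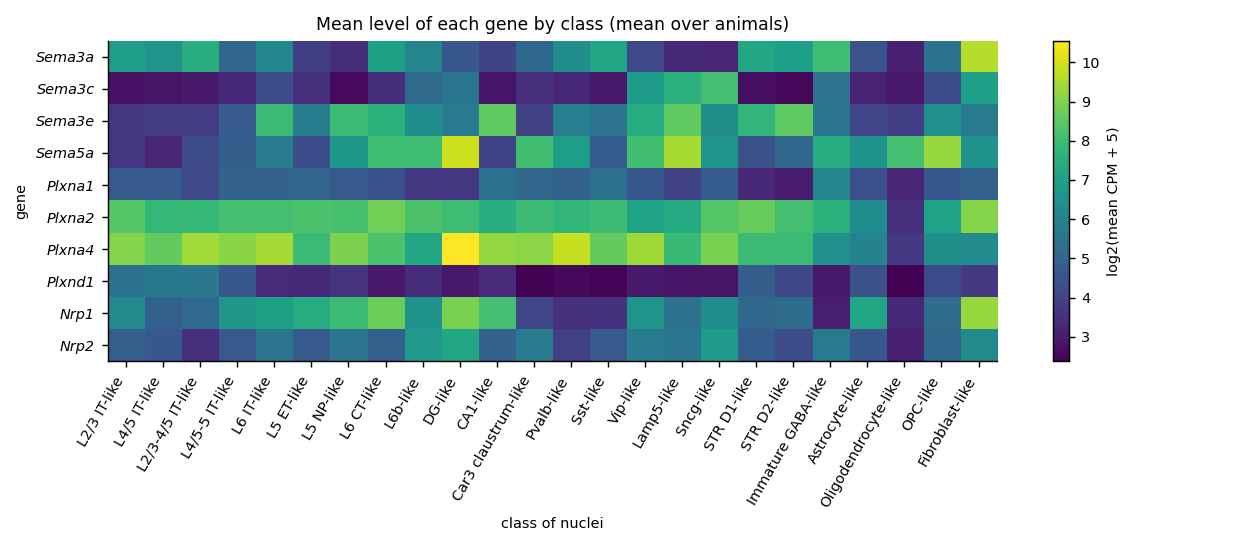
Mean level of the 10 genes (vertical axis) in the 24 classes of nuclei (horizontal axis), as log2 of the mean CPM over animals plus 5, with brighter colours for higher levels. *Plxna2* and *Plxna4* are above 20 CPM in 23 of 24 classes, whereas *Plxnd1* is above 20 CPM in 4.

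The first question was in which classes each ligand was expressed. Each of the 4 ligands had its own set of high classes. *Sema3a* (ENSMUSG00000028883.17, chr5:13125414-13602565 in mm10, plus strand, up to 18 exons per annotated transcript) encodes the classic collapsing ligand of the neuropilin 1 and plexin A receptor complex. It was highest in Fibroblast-like nuclei, a class of meningeal and vascular connective tissue cells, with 273, 826 and 1230 CPM as the lowest, median and highest of 7 animals. Among neurons, Immature GABA-like nuclei followed with 255 ± 94.8 CPM (SD, n = 8), then L2/3-4/5 IT-like nuclei with 175 ± 49.3 CPM (n = 12). The latter class was named for close scores on the L2/3 IT and L4/5 IT marker lists. STR D1-like (151 ± 59.0 CPM), Sst-like (140 ± 44.7) and L6 CT-like nuclei (124 ± 33.6) came next. *Sema3a* was thus present in upper and in deep layers, while L5 NP-like, Lamp5-like and Sncg-like nuclei were at 5.88, 4.98 and 4.45 CPM. No neighbouring classes in the order of the *Sema3a* level differed after adjustment (exact sign-flip permutation tests over animals), but the top pair had too few animals to pass. Fibroblast-like nuclei exceeded Immature GABA-like nuclei by 2.10 (SD 0.18) on the scale log2(CPM + 5) in 4 of 4 animals, for which the smallest exact p is 0.125.

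*Sema3c* (ENSMUSG00000028780.13, chr5:17574281-17730268, plus strand), a ligand known for attracting cortical axons, was above 20 CPM in 7 of 24 classes, against 15 to 18 for the other ligands. Sncg-like interneurons had 162, 227 and 596 CPM as the lowest, median and highest of 12 animals. Lamp5-like interneurons had 187 ± 26.3 CPM and Vip-like interneurons 115 ± 31.5 CPM (both n = 12). These 3 classes are interneurons that arise mainly outside the medial ganglionic eminence, and Pvalb-like and Sst-like nuclei, whose cells arise within it, were at 4.95 and 2.63 CPM. Inhibitory nuclei held 68.0% ± 7.86 of all *Sema3c* UMIs and 25.7% ± 3.14 of the nuclei (SD, n = 12). The level of *Sema3c* in the inhibitory group exceeded that in all other nuclei by 2.68 on the log2 scale (SE 0.11, edgeR quasi-likelihood test with Benjamini-Hochberg adjusted p = 3.27e-13, n = 12 animals). Fibroblast-like nuclei, the third highest class by mean CPM, had 122 ± 64.2 CPM (n = 7), but they exceeded Vip-like nuclei in only 3 of the 7 animals with both classes. In excitatory nuclei the highest class was DG-like, with 42.3 ± 26.4 CPM, and the step from Vip-like down to DG-like nuclei was present in 11 of 12 animals (mean difference 1.53 on the scale log2(CPM + 5), exact sign-flip permutation test, adjusted p = 0.0250).

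*Sema3e* (ENSMUSG00000063531.7, chr5:14025276-14256689, plus strand), the ligand of Plxnd1, was highest in an interneuron class, a striatal class and a hippocampal class. It reached 375 ± 122 CPM in Lamp5-like, 367 ± 88.4 in STR D2-like and 364 ± 88.3 in CA1-like nuclei (SD, n = 12 each), and neighbours among these 3 did not differ after adjustment. L5 NP-like (246 ± 111 CPM), L6 IT-like (241 ± 57.6), STR D1-like (211 ± 61.4) and L6 CT-like nuclei (191 ± 43.2) came next, and the step from CA1-like to L5 NP-like nuclei missed the threshold (exact sign-flip permutation test, adjusted p = 0.0562). Neither the deep layers nor the hippocampus were uniformly high. L6b-like (79.3 CPM), L5 ET-like (52.7) and DG-like nuclei (47.9) were below the rest of the excitatory nuclei (log2 difference -0.46, -1.01 and -1.06, all called by edgeR). Upper-layer nuclei were far lower, with 8.07 CPM in L2/3 IT-like and 9.12 CPM in L4/5 IT-like nuclei, and L2/3-4/5 IT-like nuclei lay between them. The highest of 12 animals in L2/3 IT-like nuclei (17.7 CPM) lay below the lowest in L6 IT-like nuclei (165 CPM). Against the rest of the excitatory nuclei, the log2 difference was 1.97 (SE 0.08) in CA1-like nuclei, and against the rest of the inhibitory nuclei it was 1.57 (SE 0.12) in Lamp5-like nuclei (edgeR, both called).

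*Sema5a* (ENSMUSG00000022231.10, chr15:32244810-32696341, plus strand), a membrane-bound semaphorin that restrains dendritic spine formation in dentate granule cells, was highest in nuclei of that kind among the 24 classes with a mean over animals. DG-like nuclei had 830, 962 and 1177 CPM as the lowest, median and highest of 12 animals, and 71.3% of them held a *Sema5a* UMI after every nucleus was thinned to 1500 UMIs (89.0% before thinning). CA1-like nuclei, from the same hippocampus, had 11.1 ± 17.4 CPM and a UMI in 1.22% of thinned nuclei, at median depths of 3169 and 3414 UMIs. Lamp5-like interneurons had 707 ± 98.6 CPM, lower than DG-like nuclei in 12 of 12 animals (exact sign-flip permutation test, adjusted p = 0.0160). The log2 difference from the rest of the broad group was 3.39 (SE 0.06) for DG-like and 2.81 (SE 0.07) for Lamp5-like nuclei.

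*Sema5a* was also present in several other neuronal classes. Vip-like (267 ± 43.7 CPM), Car3 claustrum-like (264 ± 86.1), L6b-like (253 ± 82.8) and L6 CT-like nuclei (253 ± 27.7) were above the rest of their broad group (log2 difference 0.88, 1.09, 1.00 and 1.53, all called by edgeR). L6 CT-like nuclei held 19.0% ± 4.25 of all *Sema5a* UMIs.

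In the oligodendrocyte lineage, OPC-like nuclei had 626 ± 120 CPM and Oligodendrocyte-like nuclei 279 ± 87.1 CPM (n = 12 each), a step down in 12 of 12 animals (exact sign-flip permutation test, adjusted p = 0.0160). Newly formed oligodendrocyte-like nuclei, too few per animal for a mean, held 1078 *Sema5a* UMIs in 111 nuclei over all animals, or 3842 CPM (exact Poisson interval 3616 to 4078, counting error only). A *Sema5a* UMI was present in 95.5% of these nuclei at 1500 UMIs. *Sema3c*, *Plxna1* and *Plxnd1* had no UMI in the same 111 nuclei, which allows up to 13.2 CPM by the exact Poisson upper bound. Astrocyte-like nuclei had 88.0 ± 87.4 CPM of *Sema5a*. L2/3 IT-like and L4/5 IT-like nuclei, at 7.60 and 4.46 CPM, were at the low end of the 24 classes.

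**Figure D2:**
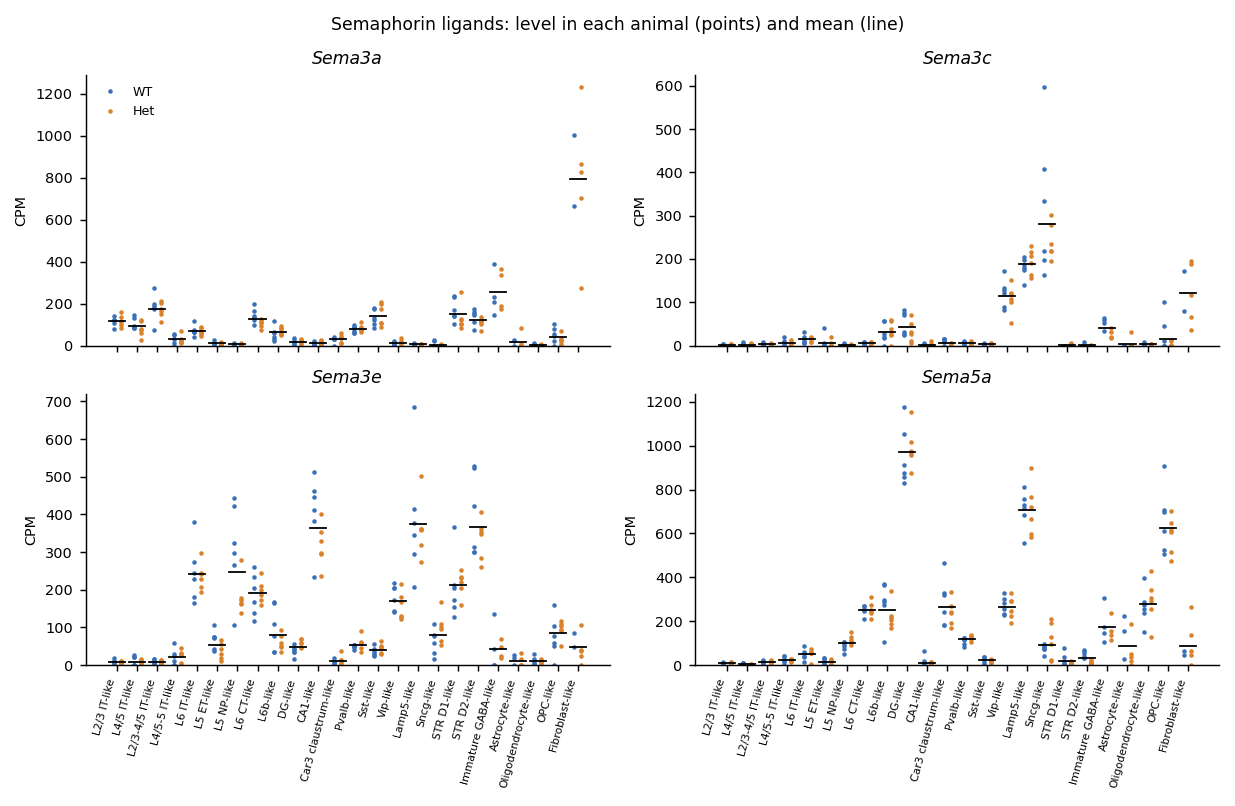
Levels of *Sema3a*, *Sema3c*, *Sema3e* and *Sema5a* in CPM (vertical axes) in each class of nuclei (horizontal axis), with a point per animal (blue WT, orange Het) and a line at the mean over animals. *Sema3c* is high in Sncg-like, Lamp5-like, Fibroblast-like and Vip-like nuclei, *Sema5a* in DG-like, Lamp5-like and OPC-like nuclei. The points of WT and Het animals overlap in each class except for *Sema5a* in STR D2-like nuclei, where all WT points lie higher.

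The receptors were then compared in the same way. *Plxna2* (ENSMUSG00000026640.12, chr1:194618218-194816869, plus strand) and *Plxna4* (ENSMUSG00000029765.12, chr6:32144268-32588192, minus strand) encode plexins that transduce class 3 and class 6 semaphorin signals, and both were present in nearly all neuronal classes. *Plxna2* was highest in Fibroblast-like nuclei (526 ± 97.2 CPM, n = 7) and, among neurons, in L6 CT-like nuclei with 396, 436 and 511 CPM as the lowest, median and highest of 12 animals. In the other neuronal classes it lay between 130 CPM (Vip-like) and 394 CPM (STR D1-like), and it fell to 6.36 CPM in Oligodendrocyte-like nuclei. No neighbours in its order differed after adjustment, though the pair of Fibroblast-like and L6 CT-like nuclei rested on 7 animals, for which the smallest exact p is 0.0156.

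*Plxna4* had a steeper order. DG-like nuclei had 1086, 1511 and 1836 CPM as the lowest, median and highest of 12 animals, above Pvalb-like interneurons in 12 of 12 animals (909 ± 106 CPM, mean difference 0.72 on the scale log2(CPM + 5), exact sign-flip permutation test, adjusted p = 0.0160). Pvalb-like interneurons in turn exceeded L6 IT-like nuclei (691 ± 48.8 CPM) in 11 of 12 animals (adjusted p = 0.0250, same exact permutation test). The granule cell class and the Pvalb-like interneurons were thus at the top. L6b-like nuclei (146 ± 61.6 CPM, n = 12) and Immature GABA-like nuclei (86.4 ± 54.3 CPM, n = 8) were the lowest neuronal classes, and Oligodendrocyte-like nuclei had 8.58 ± 4.81 CPM (n = 12).

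*Plxna1* (ENSMUSG00000030084.11, chr6:89316314-89362620, minus strand) was low throughout, as measured in these nuclei. Its highest mean was 63.5 ± 30.1 CPM in Immature GABA-like nuclei (n = 8), followed by CA1-like (38.6 ± 16.7) and Sst-like nuclei (35.9 ± 9.05, both n = 12). STR D1-like and STR D2-like nuclei were at 4.76 and 3.08 CPM. No neighbours in its order differed after adjustment.

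*Plxnd1* (ENSMUSG00000030123.15, chr6:115954811-115995005, minus strand), the receptor of Sema3e and also known from vascular patterning, was highest in upper-layer classes. Its level was 46.6 ± 21.7 CPM in L4/5 IT-like, 44.1 ± 9.14 in L2/3-4/5 IT-like and 37.4 ± 11.6 in L2/3 IT-like nuclei (n = 12 each), the 3 classes with the least *Sema3e*. No neighbours in the order of *Plxnd1* differed after adjustment. In the mean log2 level of their own marker list, L4/5 IT-like nuclei ranked 3 of 12 excitatory classes, and L4/5-5 IT-like nuclei were highest. In L6 CT-like and CA1-like nuclei, where *Sema3e* was high, *Plxnd1* was at 2.38 and 5.43 CPM. Low *Sema3e* did not go with high *Plxnd1* everywhere, since Oligodendrocyte-like (9.70 CPM) and Car3 claustrum-like nuclei (10.04 CPM) were also low in *Sema3e* and had 0.332 and 0.167 CPM of *Plxnd1*. STR D1-like (22.3 ± 9.90 CPM) and STR D2-like nuclei (12.5 ± 9.92) had both genes. Excitatory nuclei held 85.1% ± 5.43 of the *Plxnd1* UMIs and 62.0% ± 5.25 of the nuclei (SD, n = 12). Over the 24 classes, Pearson's r of log2(CPM + 5) was -0.29 between *Plxnd1* and *Sema3e* and -0.61 between *Plxnd1* and *Sema5a*, the lowest of the 45 pairs of members. These are descriptions over classes that share the same 12 libraries.

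Both neuropilins lay mainly in excitatory nuclei, *Nrp1* more so. These nuclei held 84.9% of the *Nrp1* and 71.7% of the *Nrp2* UMIs (means over 12 animals) and were 62.0% of the nuclei. *Nrp1* (ENSMUSG00000025810.9, chr8:128358604-128503363, plus strand) encodes the receptor that binds Sema3a and is also a co-receptor for vascular endothelial growth factor. L6 CT-like nuclei had 312, 414 and 487 CPM as the lowest, median and highest of 12 animals, more than CA1-like nuclei (273 ± 74.9 CPM) in 12 of 12 animals (exact sign-flip permutation test, adjusted p = 0.0160). DG-like nuclei had 473 ± 76.5 CPM (n = 12) and Fibroblast-like nuclei 627 ± 128 CPM (n = 7). Pvalb-like and Sst-like interneurons were at 6.48 and 6.81 CPM, against 93.1 ± 31.1 CPM in Vip-like interneurons. Excitatory nuclei held 84.9% ± 4.89 of the *Nrp1* UMIs, and L6 CT-like nuclei alone 37.8% ± 2.96, with 12.6% ± 1.58 of the nuclei.

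*Nrp2* (ENSMUSG00000025969.15, chr1:62703285-62818695, plus strand), the neuropilin that prefers Sema3f and Sema3c, was highest in DG-like nuclei with 108, 147 and 214 CPM as the lowest, median and highest of 12 animals. Sncg-like nuclei had 111 ± 56.3 CPM and L6b-like nuclei 107 ± 27.8 CPM, and L2/3-4/5 IT-like nuclei were at 6.37 ± 4.87 CPM. Of the 45 pairs of members, *Nrp2* and *Sema3c* had the highest r over the 24 classes (0.70), followed by *Plxna2* and *Plxna4* (0.59). By mean CPM, Sncg-like nuclei were the highest class for *Sema3c* and the second highest for *Nrp2*. For *Sema3c* their step to Lamp5-like nuclei missed the threshold (exact sign-flip permutation test, adjusted p = 0.0562). No neighbours in the order of *Nrp2* differed after adjustment. Its Sncg-like level exceeded the L6b-like level in 7 of 12 animals, with a mean difference of -0.26 on the scale log2(CPM + 5).

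**Figure D3:**
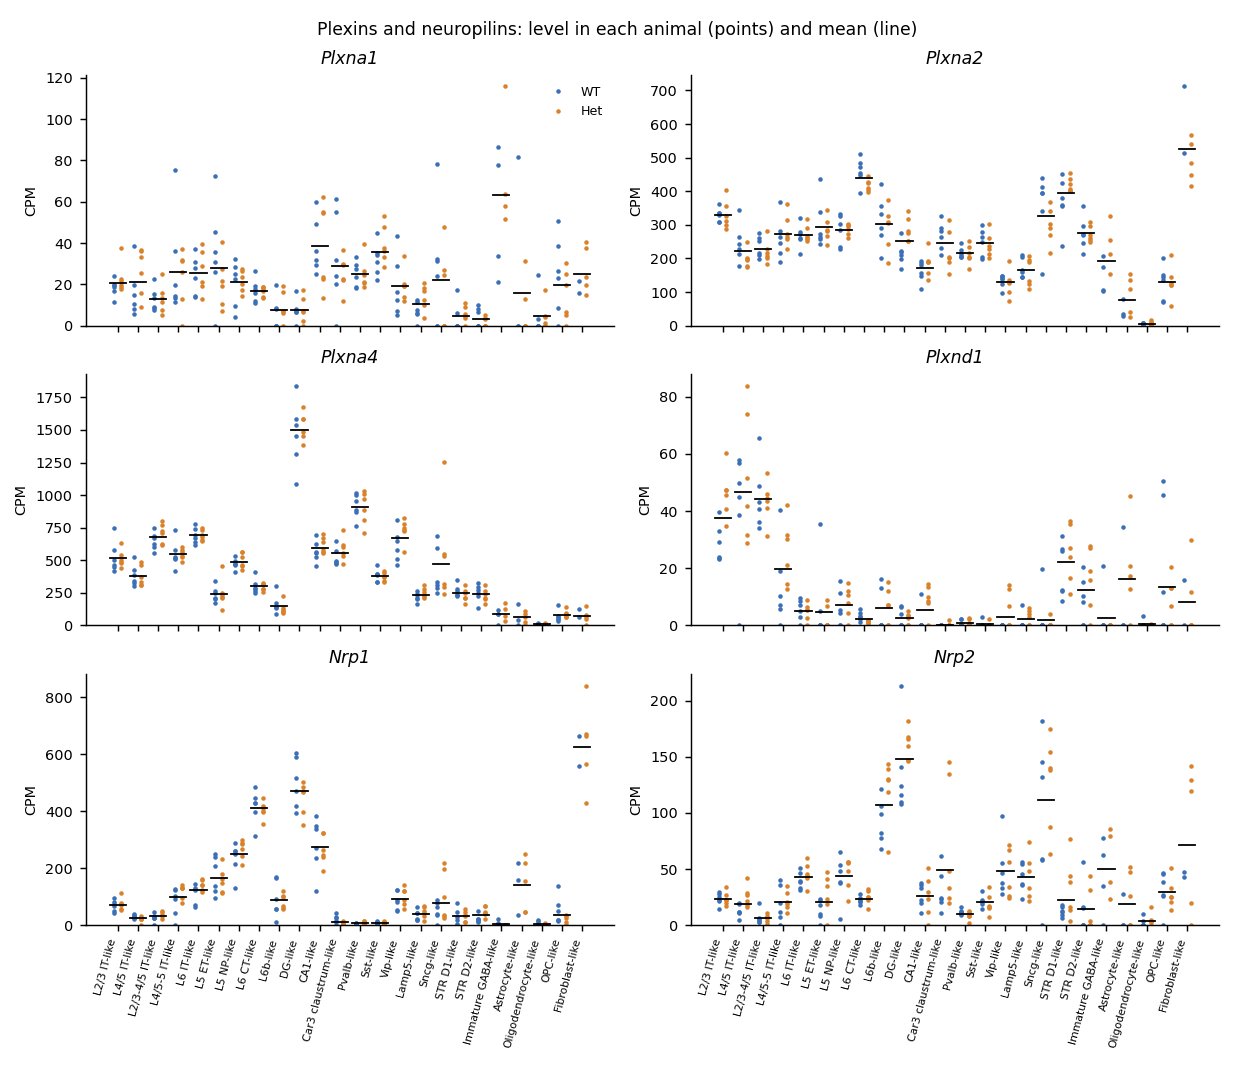
Levels of the 4 plexins and 2 neuropilins in CPM (vertical axes) in each class of nuclei (horizontal axis), with a point per animal (blue WT, orange Het) and a line at the mean. *Plxna4* peaks in DG-like nuclei at 1498 CPM, *Plxnd1* in the upper-layer classes and *Nrp1* in Fibroblast-like, DG-like and L6 CT-like nuclei.

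Of 230 neighbouring pairs in the orders of the 10 genes, 10 differed after adjustment over all 230. In 54 of the 230 the mean difference on the scale log2(CPM + 5) ran against the order of the mean CPM. In 51 of the pairs only 4 to 8 animals had both classes, and with 8 animals the smallest exact p is 0.00781, above 0.00195, the largest p that passed. A pair that did not pass is not thereby shown to be equal. Each neuronal class was tested against the rest of its broad group, and each non-neuronal class and the excitatory and inhibitory groups against all other nuclei. In these fits 190 of 235 tests of members passed (adjusted p under 0.05 and an absolute log2 difference above 0.2), 66 of them higher in the class and 124 lower, or 28.1% and 52.8%. Over all genes the same fits called 15.6% higher and 20.7% lower. A gene entered a fit if it passed the filter on low counts in either sum, the class or the rest. A lower call can thus come from a gene with almost no UMIs in the class. *Plxnd1* in Car3 claustrum-like nuclei had 0.2 UMIs in Het male 3 and none in any other animal, and was called lower (log2 difference -8.87). The shares called depend in part on this filter. The single genes whose class means followed the members other than *Sema3e* most closely over the 24 classes were *Wnt5a* for *Sema3c* (r = 0.81), *Clvs2* for *Plxna4* (0.85), *Ccdc3* for *Plxnd1* (0.80), *Il6ra* for *Nrp1* (0.74), *Apex2* for *Plxna2* (0.91), *Pqlc1* for *Nrp2* (0.74), *Nasp* for *Sema5a* (0.73), *Spaca6* for *Plxna1* (0.74) and *Gm42676* for *Sema3a* (0.88), out of 10694 genes compared.

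The promoters were searched for the letters that the MYT1L protein is known to bind. The zinc fingers of the MYT1 family bind a core of AAAGTT, and RefSeq promoter windows of 300 bases (GRCm38.p6, the assembly of mm10) were at hand for 8 of the 10 members, *Plxna1* and *Plxna4* not among them. The core stood on either strand in 2 of these 8, and in 14.1% of 32851 promoter windows of the same length. Both stretches are shown because they place the core relative to the start, with the core in capitals and 30 bases of the plus strand around or beside it.
Sema3a, chr5:13396534-13396563, core at position -240 from the RefSeq start: aacttgttgtAAAGTTggaagtactgtttc
Nrp2, chr1:62703157-62703186, core on the other strand (read AACTTT) at position -148: gcgtggcaccttAACTTTgatcgcgcggcc
The RefSeq start used for *Sema3a* lies inside the longer annotated gene given above. A match describes letters only, and binding was not measured in these files.

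The second question was whether the genes differed in Het against WT. *Myt1l* itself was not lower in Het nuclei. Over all nuclei it had 829, 893 and 940 CPM as the lowest, median and highest of 6 WT animals and 923, 993 and 1012 CPM in 6 Het animals, and in L6 CT-like nuclei the WT animals (1112 to 1302 CPM) lay below all Het animals (1352 to 1596 CPM). The log2 fold change was 0.13 (edgeR quasi-likelihood test, Benjamini-Hochberg adjusted p = 0.668) and 0.24 (adjusted p = 0.0618), respectively. The allele is a frameshift, whose transcript can still be counted, so the counts do not check the genotype labels.

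No member passed the same 2 thresholds in any class or broad group. The 26 fits gave 132 tests of members after the filter on low counts, with 0 called by edgeR. DESeq2 called 1 of 259 tests of members, against 0.052% of the tests of all genes by the same tool. Without the filter on low counts edgeR called 4 of 259 (against 0.0989% of all tests), and with no upper limits on nuclei 2 of 192 (against 0.15%). Of the 132 tests, 12 had an unadjusted p under 0.05 (9.09%, against 6.93% of the tests of all genes). Over all genes and fits, 0.133% were called, and in L6 CT-like nuclei, the class with the most calls, 0.96% (81 of 8440 genes). For the 10 members WT and Het animals overlapped in every class, with the exception of *Sema5a* in STR D2-like nuclei. There WT animals had 30.6 to 68.0 CPM and Het animals 1.73 to 23.1 CPM, from 0.3 to 6.6 UMIs per animal. This value fell below the filter on low counts and was not tested in the main fits, and without the filter it was not called. The share of such pairs without overlap over all genes is not given here, so the exception is not read as a result. The 12 values below the unadjusted threshold are given next, and none of them is a called difference. With no upper limits on nuclei, 11 of the 12 were smaller by more than 1.5 times.

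Among the ligands, *Sema3a* in L6 CT-like nuclei had 95.6, 138 and 199 CPM as the lowest, median and highest of 6 WT animals and 75.2, 110 and 127 CPM in 6 Het animals. The highest 4 values were WT and the lowest 2 Het, with the groups overlapping in between. The log2 fold change was -0.50 (SE 0.16, 95% interval -0.81 to -0.19, edgeR quasi-likelihood test, Benjamini-Hochberg adjusted p = 0.194). It was called in 4 of 21 alternatives, among them edgeR with all 12 animals without the filter on low counts (adjusted p = 0.00154), edgeR without WT female 1 (0.0357) and DESeq2 (0.0400). L6 CT-like nuclei were made of 5 clusters that differed in *Sema3a*. In the largest cluster, 41.6% of the class in WT and 37.7% in Het animals, the mean was 196 ± 33.4 CPM in WT and 156 ± 27.1 CPM in Het. In a cluster with 20.7% of the WT and 27.0% of the Het nuclei of the class, it was 107 ± 47.4 and 62.1 ± 10.5 CPM. In a cluster with 23.5% and 19.4% it was 158 ± 71.3 and 152 ± 73.9 CPM, nearly level (SD, n = 6 each). The 2 smallest clusters had 24.4 and 24.9 CPM, and 32.5 and 14.8 CPM, in WT and Het animals. The part of these cluster shares in the result was not tested.

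*Sema3e* in L5 NP-like nuclei had 107, 311 and 444 CPM as the lowest, median and highest of 6 WT animals and 138, 169 and 278 CPM in 6 Het animals. The lowest of all 12 values was a WT animal, WT female 1. The log2 fold change was -0.83 (SE 0.26, 95% interval -1.34 to -0.33, edgeR adjusted p = 0.381), and without that animal it was -0.97 (adjusted p = 0.00052). It was also called with all 12 animals without the filter on low counts and with no upper limits on nuclei (log2 fold change -0.54, adjusted p = 0.0137). The L5 NP-like nuclei were made of 2 clusters. In the larger, *Sema3e* had 379 ± 155 CPM in WT and 213 ± 61.7 CPM in Het animals (SD, n = 6 each), while in the smaller the means ran the other way, 47.4 ± 10.6 CPM in WT and 83.2 ± 51.9 CPM in Het (n = 4 each). *Sema3e* in CA1-like nuclei had medians of 429 CPM in WT and 314 CPM in Het animals (log2 fold change -0.38, SE 0.15, edgeR adjusted p = 0.392). *Sema5a* had a higher median in Het L5 NP-like nuclei (111 against 90.1 CPM, log2 fold change 0.38, SE 0.18) and a lower one in Het L6b-like nuclei (209 against 293 CPM, -0.44, SE 0.21). *Sema3c* had no value below the unadjusted threshold in its 6 tests, the smallest adjusted p being 0.844 (edgeR).

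Among the plexins, *Plxnd1* had the smallest p of all members. In L2/3 IT-like nuclei, a class high in *Plxnd1*, WT animals had 23.1, 26.7 and 39.7 CPM as the lowest, median and highest of 6 and Het animals 34.9, 46.4 and 60.4 CPM. A single WT animal reached into the Het range, and the log2 fold change was 0.55 (SE 0.17, 95% interval 0.21 to 0.89, edgeR adjusted p = 0.273). In the sum of all inhibitory nuclei, WT animals had 1.99, 2.97 and 5.08 CPM and Het animals 4.66, 6.53 and 9.29 CPM. That difference had a log2 fold change of 1.17 (SE 0.26, edgeR adjusted p = 0.0581), and it was called with all 12 animals without the filter on low counts (0.0111), without WT female 1 (0.0320) and without Het male 3 (0.0282).

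The share of striatal nuclei among inhibitory nuclei had a higher median in Het animals, with overlapping ranges and without a test. STR D1-like and STR D2-like nuclei, the inhibitory classes with the most *Plxnd1*, made up 8.40%, 10.2% and 17.2% of inhibitory nuclei as the lowest, median and highest of 6 WT animals, and 13.0%, 19.2% and 22.3% in 6 Het animals. Of 36 *Plxnd1* UMIs in WT inhibitory nuclei 13 were in STR D1-like and 6 in STR D2-like nuclei, and of 113.8 in Het nuclei 41.3 and 25.5 were (the deposited counts can be fractions). In the 5 interneuron classes alone there were 5 WT and 16 Het UMIs, with medians of 0.689 and 1.41 CPM, which fell below the filter. The remaining *Plxnd1* UMIs of inhibitory nuclei lay mostly in unnamed clusters. The share of striatal nuclei in the difference was not tested.

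*Plxna2* had 3 values below the unadjusted threshold, in both directions. The medians were 463 CPM in WT and 416 CPM in Het L6 CT-like nuclei (log2 fold change -0.18, SE 0.07), 215 and 280 CPM in DG-like nuclei (0.37, SE 0.14), and 235 and 196 CPM in L4/5 IT-like nuclei (-0.33, SE 0.14). *Plxna4* and *Plxna1* had none in 22 and 8 tests. For *Plxna4*, the most widely tested receptor after *Plxna2*, the log2 fold changes ranged from -0.29 to 0.32 with a median near 0.

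Of the neuropilins, *Nrp1* in inhibitory nuclei had medians of 25.1 CPM in WT and 39.2 CPM in Het animals (log2 fold change 0.47, SE 0.18, edgeR adjusted p = 0.544), and in the 5 interneuron classes alone the log2 fold change was 0.43 (edgeR adjusted p = 0.710). *Nrp2* in excitatory nuclei had medians of 44.5 and 53.5 CPM (0.22, SE 0.09, edgeR adjusted p = 0.487). DG-like nuclei, the class highest in *Nrp2*, were 3.25% of excitatory nuclei in WT and 4.78% in Het animals (medians of 6), and without the DG-like and CA1-like classes the log2 fold change was 0.18 (edgeR adjusted p = 0.699). An unnamed excitatory cluster of 396 nuclei, with 181 CPM of *Nrp2*, stayed in that fit. The part of the class shares in the *Nrp1* and *Nrp2* values was not tested.

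**Figure D4:**
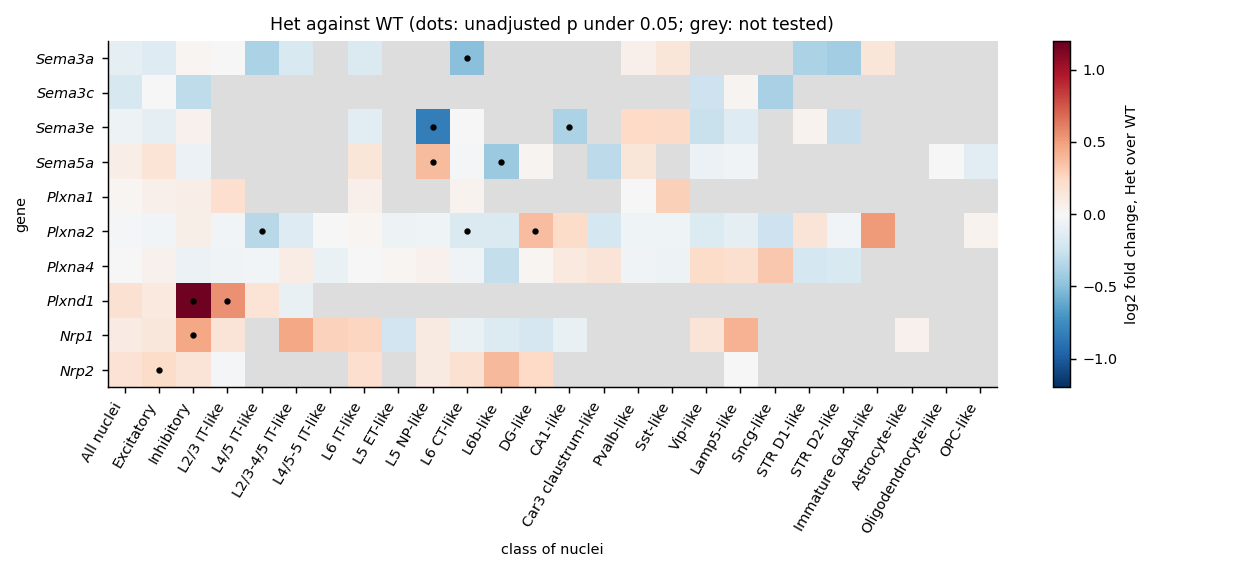
Log2 fold change of Het over WT for the 10 genes (vertical axis) in each class or broad group (horizontal axis), blue for lower and red for higher in Het, grey where a gene was not tested, and dots where the unadjusted p was under 0.05. There are 12 dots and no call after adjustment.

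**Figure D5:**
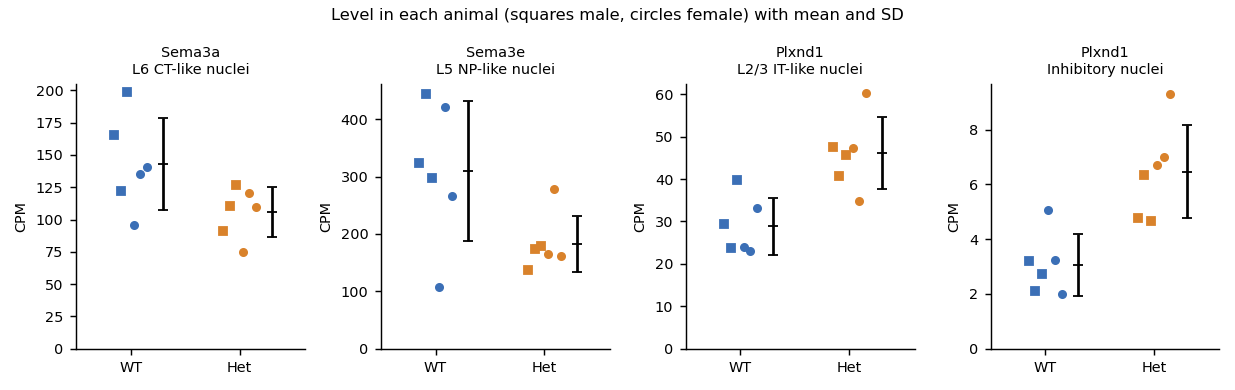
Level in CPM (vertical axes) in each WT (blue) and Het (orange) animal for *Sema3a* in L6 CT-like, *Sema3e* in L5 NP-like, *Plxnd1* in L2/3 IT-like and *Plxnd1* in all inhibitory nuclei, squares for males and circles for females, with the mean and SD in black. The 2 genotypes overlap in all 4 panels, and a WT animal at 107 CPM is the lowest for *Sema3e*.

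Male and female animals were compared through the interaction of sex and genotype. Of 131 tests of members in 25 fits, 0 were called by edgeR and 0 by DESeq2, with 8 at an unadjusted p under 0.05, and 0.0116% of all genes were called. The share of all genes under the unadjusted threshold is not given here, so the 8 are not read as a result. The smallest p belonged to *Plxnd1* in excitatory nuclei, whose log2 fold change was lower by 0.61 in males than in females (SE 0.20), with an edgeR adjusted p of 0.687.

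The other genes of the pathway were tested in the same fits. Of 57 listed genes, 52 were tested in at least 1 class, in 567 tests, of which 1 was called (0.176%, against 0.133% of the tests of all genes) and 58 had an unadjusted p under 0.05 (10.2%, against 6.93%). The share called was thus near that of all genes. The called gene was *Nrcam*, a cell adhesion molecule that serves as a partner of neuropilin 2, in L6 CT-like nuclei (log2 fold change -0.26, SE 0.07, edgeR quasi-likelihood test, Benjamini-Hochberg adjusted p = 0.0446), where 0.96% of all genes were called and 1 of 38 pathway genes. By role, 0 of 110 tests of other semaphorins were called, 0 of 54 of other plexins, 1 of 89 of co-receptors and binding partners and 0 of 314 of downstream signalling genes. In L6 CT-like nuclei the next smallest p-values belonged to *Sema4a* (log2 fold change 0.58, edgeR adjusted p = 0.0812), the adhesion gene *Cntn2* (0.61, adjusted p = 0.109), *Sema5b* (0.41, adjusted p = 0.110) and *Sema7a* (0.43, adjusted p = 0.195). The call of *Nrcam* was lost in 13 of 21 alternative settings, while its log2 fold change lay between -0.29 and -0.20 in all 21. Of the others, *Sema4a* and *Sema5b* were each called in 3 of 21 (edgeR adjusted p = 0.0360 and 0.00460 without the filter on low counts, 0.0410 and 0.0221 with no upper limits on nuclei, and once each on leaving out 1 animal, 0.0429 without WT male 2 and 0.0304 without WT female 2). *Sema7a* was called in 1, with no upper limits (0.0191), and *Cntn2* in 1, without WT female 1 (0.0203).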

How the data were processed

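Nuclei of the 12 cortices were profiled with a combinatorial-barcoding 3' kit by the study's authors, who mapped reads to mm10 with the kit's pipeline. The deposited matrices hold estimated counts (UMIs, of which 92.3% of entries are whole), not normalized, and the submitters' processing notes name Seurat 4.3.0 and DESeq2 1.38.3. No other annotation of nuclei was used.

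The limits of the study's methods were applied to each barcode (UMIs from 800 to 6000 and genes from 300 to 3000, mitochondrial share up to 1%, a log ratio of genes to UMIs of at least 0.9), which removed deep nuclei above all. The least deep barcode of an animal had 1502 to 2182 UMIs. Doublets were treated by these limits and by leaving mixed clusters (1038 nuclei) unnamed, with no caller in the main analysis. Nuclei were clustered with scanpy 1.11.5 and leidenalg 0.10.2 on 3000 variable genes without the members, the pathway genes, *Myt1l*, sex-chromosome and mitochondrial genes (50 principal components, 20 neighbours), and clusters were named from at least 3 detected markers.

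Estimated counts were summed per class and animal, rounded and tested with edgeR 4.0.16 (R 4.3.3; TMM, filterByExpr, robust glmQLFit, glmQLFTest, Benjamini-Hochberg over all genes of a class), genotype being the only term. An animal entered a class with at least 10 nuclei and a class was tested with at least 3 animals per genotype. Each neuronal class was set against the rest of its broad group, and each non-neuronal class and broad group against all other nuclei, with animal as a block. Neighbouring classes were compared by two-sided exact sign flips over animals on log2(CPM + 5), whose smallest p is 0.000488 with 12 animals. Alternatives were DESeq2 1.42.0, other normalizations, filters, covariates, nuclei and classes, and leaving out each animal. The setting with no upper limits also dropped the limit on the log ratio of genes to UMIs. Its added nuclei were not clustered but took the class held by at least 60% of their 20 nearest neighbours. The fits were tested on simulated data.

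Replicates are separate animals. Same-numbered WT and Het animals did not deviate together (correlations from -0.457 to 0.204), which gave no sign that the numbers pair them. Such correlations cannot exclude a shared litter. All 66 pairs of libraries differed beyond sampling noise (chi-square per degree of freedom at least 2.43). The members and gene lists were chosen with earlier results of these data known. Named genes were the 10 members, *Myt1l*, any pathway gene called plus at most 4 more of the smallest p in a class where a member is described, and the 3 genes that follow each member most closely, of which the first is printed (that of *Sema3e* is not reported here). Gene positions are those of GENCODE for mm10, and promoters come from RefSeq. Intervals around pooled UMI counts cover counting error only.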

Additional observations from a re-analysis of the deposited data

Results flagged for a closer look

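In groups of 6 animals, a value was singled out where its gap to the nearest other animal was above Dixon's 95% critical share of the group's range. Chance singles out about 1 group in 20, and 44 groups were examined. Het female 2 was singled out 4 times and WT female 2 once, and no cause was tested. *Sema3e* in L5 NP-like nuclei was 278 CPM in Het female 2, against 178 CPM in the nearest and a median of 169 CPM over the Het animals. Over all nuclei, *Sema3e* was 127 CPM in the same animal, with 108 CPM in the nearest. *Plxna2* in L4/5 IT-like nuclei was 248 CPM in Het female 2, with 202 CPM in the nearest. *Sema5a* in L6b-like nuclei was 337 CPM in Het female 2, with 224 CPM in the nearest, and 106 CPM in WT female 2, with 274 CPM in the nearest of the other WT animals.

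Among clusters of at least 100 nuclei, 3 that could not be named had more of a member than any named cluster. *Sema3c* reached 365 CPM in an inhibitory cluster of 126 nuclei with *Npas1*, *Parm1* and *Prox1* among its leading genes, against 261 CPM in the highest named cluster. *Plxnd1* reached 110 CPM in an excitatory cluster of 115 nuclei led by *Grik1*, *Thsd7a* and *Reln*, from 41 UMIs, against 48.2 CPM. *Nrp2* reached 181 CPM in an excitatory cluster of 396 nuclei led by *Zbtb20*, against 150 CPM. These clusters entered the sums of all excitatory or inhibitory nuclei and no class. They were chosen after their values were seen, and no test was made of them.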

How the results depend on the processing

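Over all genes, 161 were called in Het against WT, 326 by DESeq2, 620 without the filter on low counts and 323 with no upper limits on nuclei. With sex as a covariate 142 were called and with the replicate block 120. Leaving out 1 animal gave from 80 (without WT female 3) to 279 (without WT female 1). Against 0 of 132 tests of members called, DESeq2 called 1 of 259 (against 0.052% of the tests of all genes). The fit with the replicate block called 1 of 132 (*Sema3a* in L6 CT-like nuclei, edgeR adjusted p = 0.0155). The fit without a filter on low counts called 4 of 259 (against 0.0989%) and the nuclei with no upper limits 2 of 192 (against 0.15%). Among the latter was *Sema3a* in STR D1-like nuclei (log2 fold change -0.74, edgeR adjusted p = 0.0260, against -0.38 and 0.861), which is not among the 12 values below. Leaving out 1 animal gave 0 to 3 calls of members. These were 3 of 135 without WT female 1 and 1 of 134 without Het male 3, where 279 and 153 were called over all genes. Shares over all genes are not given here for the fits that leave out 1 animal, the sex covariate, the replicate block, the Scrublet setting or the L6 CT-like nuclei without 2 clusters. The counts of members and pathway genes in those settings are therefore not read against all genes. Of the pathway genes, 1 of 567 tests was called. Without the filter it was 4 of 1392, against 0.0989% of the tests of all genes (*Sema4a* and *Sema5b*, each in excitatory and in L6 CT-like nuclei). With no upper limits it was 7 of 873, against 0.15% (the same 4, *Sema7a* and *Nrcam* in L6 CT-like and *Pak1* in L6 IT-like nuclei). There were 0 of 567 with sex as a covariate, 0 of 567 with the replicate block and 2 of 560 once the top 5% of Scrublet doublet scores were removed. In L6 CT-like nuclei without the 2 clusters low in *Foxp2* (chosen after seeing the data) it was 0 of 37. Leaving out 1 animal gave 0 to 4 (0 without WT male 3, WT female 3 or any single Het animal other than Het female 3). The 4 came without WT male 2, in 574 tests, where 239 were called over all genes. The replicate numbers gave no sign of pairing the animals. Of 230 neighbour pairs, 55 differed with no upper limits on nuclei, which more than doubles the nuclei, against 10. On leaving out 1 animal, class against the rest called 179 to 192 tests of members (190 of 235 with all animals), and sex by genotype 0 to 0. The 12 log2 fold changes of members at an unadjusted p under 0.05, and that of *Nrcam*, kept their sign in every setting run for them. With no upper limits, 11 of the 12 shrank by more than 1.5 times, *Sema5a* in L5 NP-like nuclei from 0.38 to 0.017, *Nrp1* in inhibitory nuclei from 0.47 to 0.11, *Plxna2* in L4/5 IT-like nuclei from -0.33 to -0.13 and *Plxnd1* in inhibitory nuclei from 1.17 to 0.58. *Nrp1* in inhibitory nuclei was called without the filter (edgeR adjusted p = 0.0113). Apart from the construction of a setting, the cause of a change was not tested. The planned test of whether a genotype effect differs between classes was not run, because it was to follow a called member and none was called. Depth limits *Plxnd1*, with 5 to 7 UMIs per WT animal behind its inhibitory level. Classes rebuilt here hold 24595 of 34861 nuclei, and another naming could move nuclei between neighbouring classes.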
